A study of Melitaea cinxia with 170 samples.

Results

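The 50 gene models described here had a higher median level in flown than in control thoraxes of butterflies from Åland (AL), and a lower median level in flown than in control thoraxes of butterflies from Pikku Tytärsaari (PT), about 20 h after the flight treatment. They were selected on measured values. R20 is the log2 ratio of the median CPM (read counts scaled to a common library total) in flown butterflies at 20 h to that in control butterflies at 20 h, with 0.5 CPM added to each median. Of 16667 gene models, 15763 had at least 1 read and 2465 had a mean of at least 20 CPM over all butterflies. Among those 2465, 1121 had R20 above 0 in AL and below 0 in PT, and the members are the 50 of them with the highest score, the smaller of R20 in AL and minus R20 in PT.

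The animals were 85 Glanville fritillaries (Melitaea cinxia), and RNA of each thorax was sequenced. AL supplied 40 and PT 45, and 53 were females and 32 males. From AL there were 13 butterflies in the group Flight1h (7 females, 6 males), 6 in Control1h (4 females, 2 males), 15 in Flight20h (10 females, 5 males) and 6 in Control20h (4 females, 2 males). From PT there were 16 in Flight1h (10 females, 6 males), 7 in Control1h (4 females, 3 males), 15 in Flight20h (9 females, 6 males) and 7 in Control20h (5 females, 2 males). Flown butterflies were frozen 1 h after flight began or on the next morning, about 20 h after it began. Controls went through the same handling and were frozen at the same times, but did not fly. The 20 h butterflies of both treatments spent the night caged with food.

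The thorax of a butterfly is filled largely by the flight muscles, and active flight is among the most energy-demanding activities known in animals. Gene expression in muscle can shift with exercise and again during the recovery that follows. The Glanville fritillary lives in networks of small habitat patches, and flight carries it between them. The labels tie each population to an island, so any difference in rearing, origin or handling that followed the island cannot be told apart from population. In a whole thorax, fewer cells of a type and less RNA per cell cannot be told apart either.

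The identifiers of the gene models carry no names, and 0 of the 50 matched the RefSeq table of this species. No function, sequence or position is therefore given for any member, and lists of muscle or other cell type markers were not analysed here. Totals per butterfly, summed over its libraries with 650 nt and 450 nt inserts, ran from 1820059 to 6944328 counts with a median of 3955268. The 50 members held 0.590% of all counts on average, and none was among the 100 most abundant gene models. Their mean levels were 20.8 to 1141 CPM (median 47.0), against a median of 55.4 CPM for all 2465. Reads were present in all 85 butterflies for 46 of the 50. No 2 members had consecutive identifier numbers, and 2 pairs lay within 3 numbers of each other.

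At 20 h the members' R20 had a median of 0.92 in AL (range 0.65 to 2.15) and of -0.85 in PT (range -1.97 to -0.64). These values chose the members, so they are a description and carry no test. Over all 2465 gene models the median R20 was 0.28 in AL, where 72.7% were above 0, and -0.16 in PT, where 37.5% were above 0. The direction of the members was thus the commonest of the 4 combinations: 45.5% of the 2465 were up in AL and down in PT, 27.2% were up in both, 17.0% were down in both and 10.3% were down in AL and up in PT. As many as 59 gene models up in both populations, 26 down in both and 13 down in AL and up in PT also reached the members' lowest score of 0.642 when both ratios were taken without sign.

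**Figure D1:**
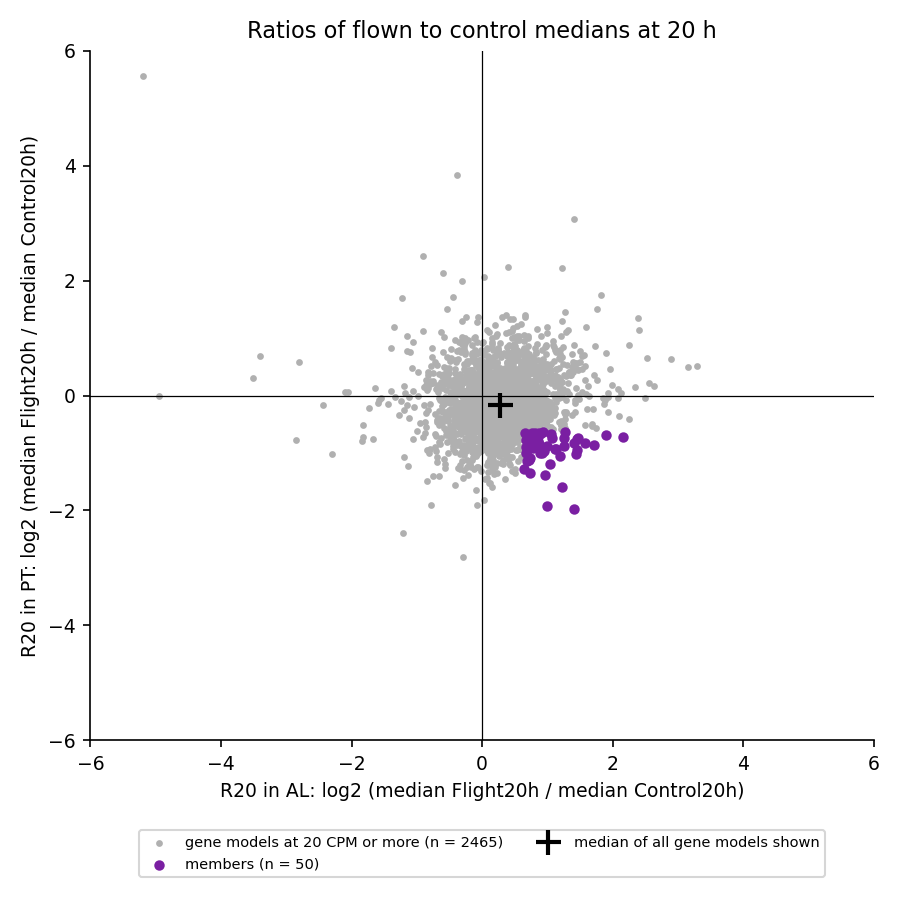
Each point is 1 of 2465 gene models, with R20 in AL on the horizontal axis and R20 in PT on the vertical axis (both log2 ratios of flown to control medians at 20 h). The 50 members (purple) lie at the lower right by construction, and the cross at 0.28 and -0.16 marks the median of all gene models shown.

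The general shift at 20 h depended on how counts were scaled. With TMM scaling, which sets aside the most abundant and most changed gene models, the median R20 of the 2465 was 0.02 in AL and -0.06 in PT. The members' medians were then 0.59 in AL and -0.70 in PT, and 48 of the 50 kept both signs. Relative to the median of all 2465 without TMM, the members' medians were 0.64 in AL and -0.69 in PT, and all 50 kept both signs. The 10 most abundant gene models took a median of 24.9% of counts in AL Flight20h butterflies and 30.6% in AL Control20h butterflies. In PT they took 26.7% in Flight20h butterflies and 27.2% in Control20h butterflies. The part of these shares in the members' ratios was not tested beyond these scalings.

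Summed over the 50 members, the 20 h level in AL was 4669 to 11368 CPM (median 6825) in Flight20h butterflies, and 2506 to 7474 CPM (median 3835) in Control20h butterflies. The sum in PT was 3140.2 to 7156 CPM (median 4415) in Flight20h butterflies, and 3522 to 10666 CPM (median 7271) in Control20h butterflies. Flown AL butterflies and control PT butterflies were thus the high groups, and the groups overlapped in both populations. The sum gives most weight to abundant members, and MCINXTMP_015213, MCINXTMP_010679 and MCINXTMP_008268 averaged 1141, 711 and 489 CPM over all butterflies. In AL the overlap came from 1 control female at 7474 CPM, since the next control stood at 4145 CPM, below every flown butterfly. At 1 h the order was another one. The summed median was 6197 CPM in AL Flight1h and 4382 CPM in AL Control1h butterflies, and 5937 CPM in PT Flight1h and 5275 CPM in PT Control1h butterflies.

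**Figure D2:**
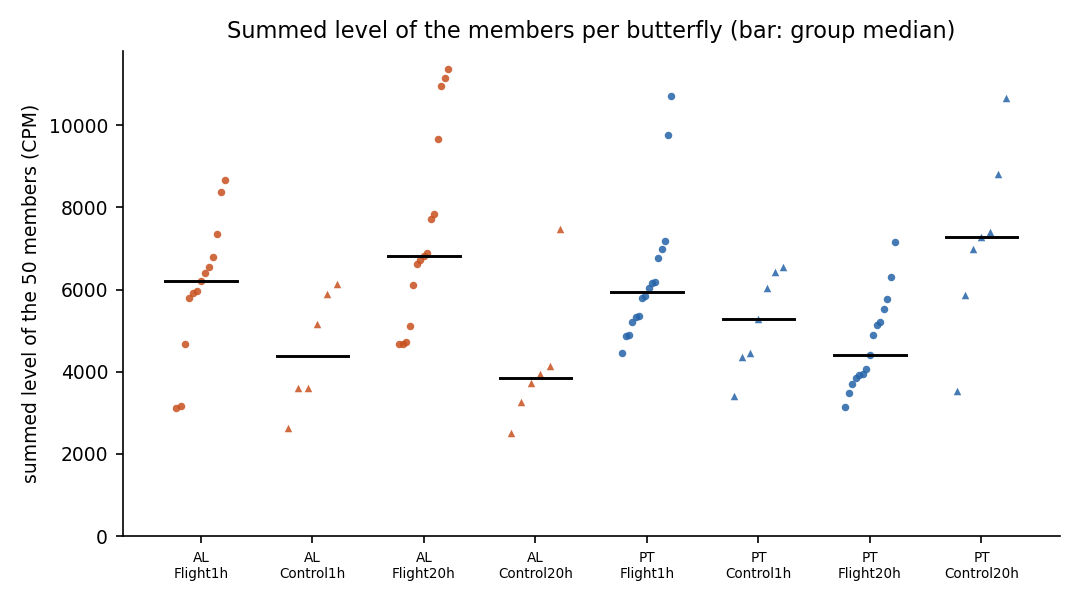
Summed level of the 50 members in CPM for each butterfly, by population and treatment, with dots for flown and triangles for control butterflies, spread sideways in order of level, and bars at group medians. At 20 h the AL medians are 6825 CPM in flown and 3835 CPM in control butterflies, and the PT medians are 4415 CPM in flown and 7271 CPM in control butterflies.

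The member with the highest score, 1.41, was MCINXTMP_003761. In AL its level ran from 1.10 to 22.9 CPM (median 5.33) in Flight20h butterflies, against 0.413 to 29.9 CPM (median 1.69) in Control20h butterflies. In PT it ran from 6.99 to 196 CPM (median 25.9) in Flight20h butterflies, against 9.30 to 255 CPM (median 103) in Control20h butterflies. Groups overlapped widely within each population, and PT medians were above both AL medians. Its R20 was 1.41 in AL and -1.97 in PT, and no other member had so low a ratio in PT.

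MCINXTMP_012616 ranked next. In AL it ran from 12.3 to 147 CPM (median 69.3) in Flight20h butterflies, against 5.99 to 60.5 CPM (median 29.5) in Control20h butterflies. The PT range was 8.95 to 215 CPM (median 27.5) in Flight20h butterflies, against 25.3 to 104 CPM (median 83.4) in Control20h butterflies. The ratios were 1.22 in AL and -1.59 in PT, and the highest single value of all was in a flown PT butterfly, against the direction of the medians there.

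MCINXTMP_005427 had R20 of 1.19 in AL and -1.06 in PT. The AL range was 11.8 to 48.4 CPM (median 22.9) in Flight20h butterflies, against 9.09 to 50.6 CPM (median 9.76) in Control20h butterflies. The values in PT were 14.3 to 40.3 CPM (median 24.1) in Flight20h butterflies, against 15.1 to 91.9 CPM (median 50.6) in Control20h butterflies. Flown medians of both populations were close to each other, while the control medians lay on either side of them. In AL the groups overlapped through a single control, since the next control was at 10.2 CPM.

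MCINXTMP_013403 had R20 of 1.04 in AL and -1.19 in PT. Levels in AL were 14.2 to 204 CPM (median 77.6) in Flight20h butterflies, against 31.0 to 117 CPM (median 37.4) in Control20h butterflies. Levels in PT were 33.6 to 230.2 CPM (median 105) in Flight20h butterflies, against 72.0 to 839.9 CPM (median 239) in Control20h butterflies. Control PT butterflies were high, and the groups overlapped in both populations.

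MCINXTMP_012423 had R20 of 1.44 in AL and -1.01 in PT. In AL it ran from 3.08 to 267 CPM (median 57.1) in Flight20h butterflies, against 4.72 to 76.4 CPM (median 20.6) in Control20h butterflies. In PT it stood at 4.63 to 46.3 CPM (median 14.8) in Flight20h butterflies, against 4.85 to 45.5 CPM (median 30.5) in Control20h butterflies. In PT the ranges of flown and control butterflies were nearly the same, and only their medians stood apart.

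MCINXTMP_003386 had R20 of 1.00 in AL and -1.93 in PT. The AL range was 3.07 to 25.2 CPM (median 10.6) in Flight20h butterflies, against 0.629 to 39.9 CPM (median 5.04) in Control20h butterflies. In PT it ran from 0.892 to 69.5 CPM (median 3.09) in Flight20h butterflies, against 2.26 to 78.6 CPM (median 13.2) in Control20h butterflies. These are low levels with overlapping groups, and the same gene model had the largest fitted flight effect of the members at 1 h, described with the 1 h results.

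**Figure D3:**
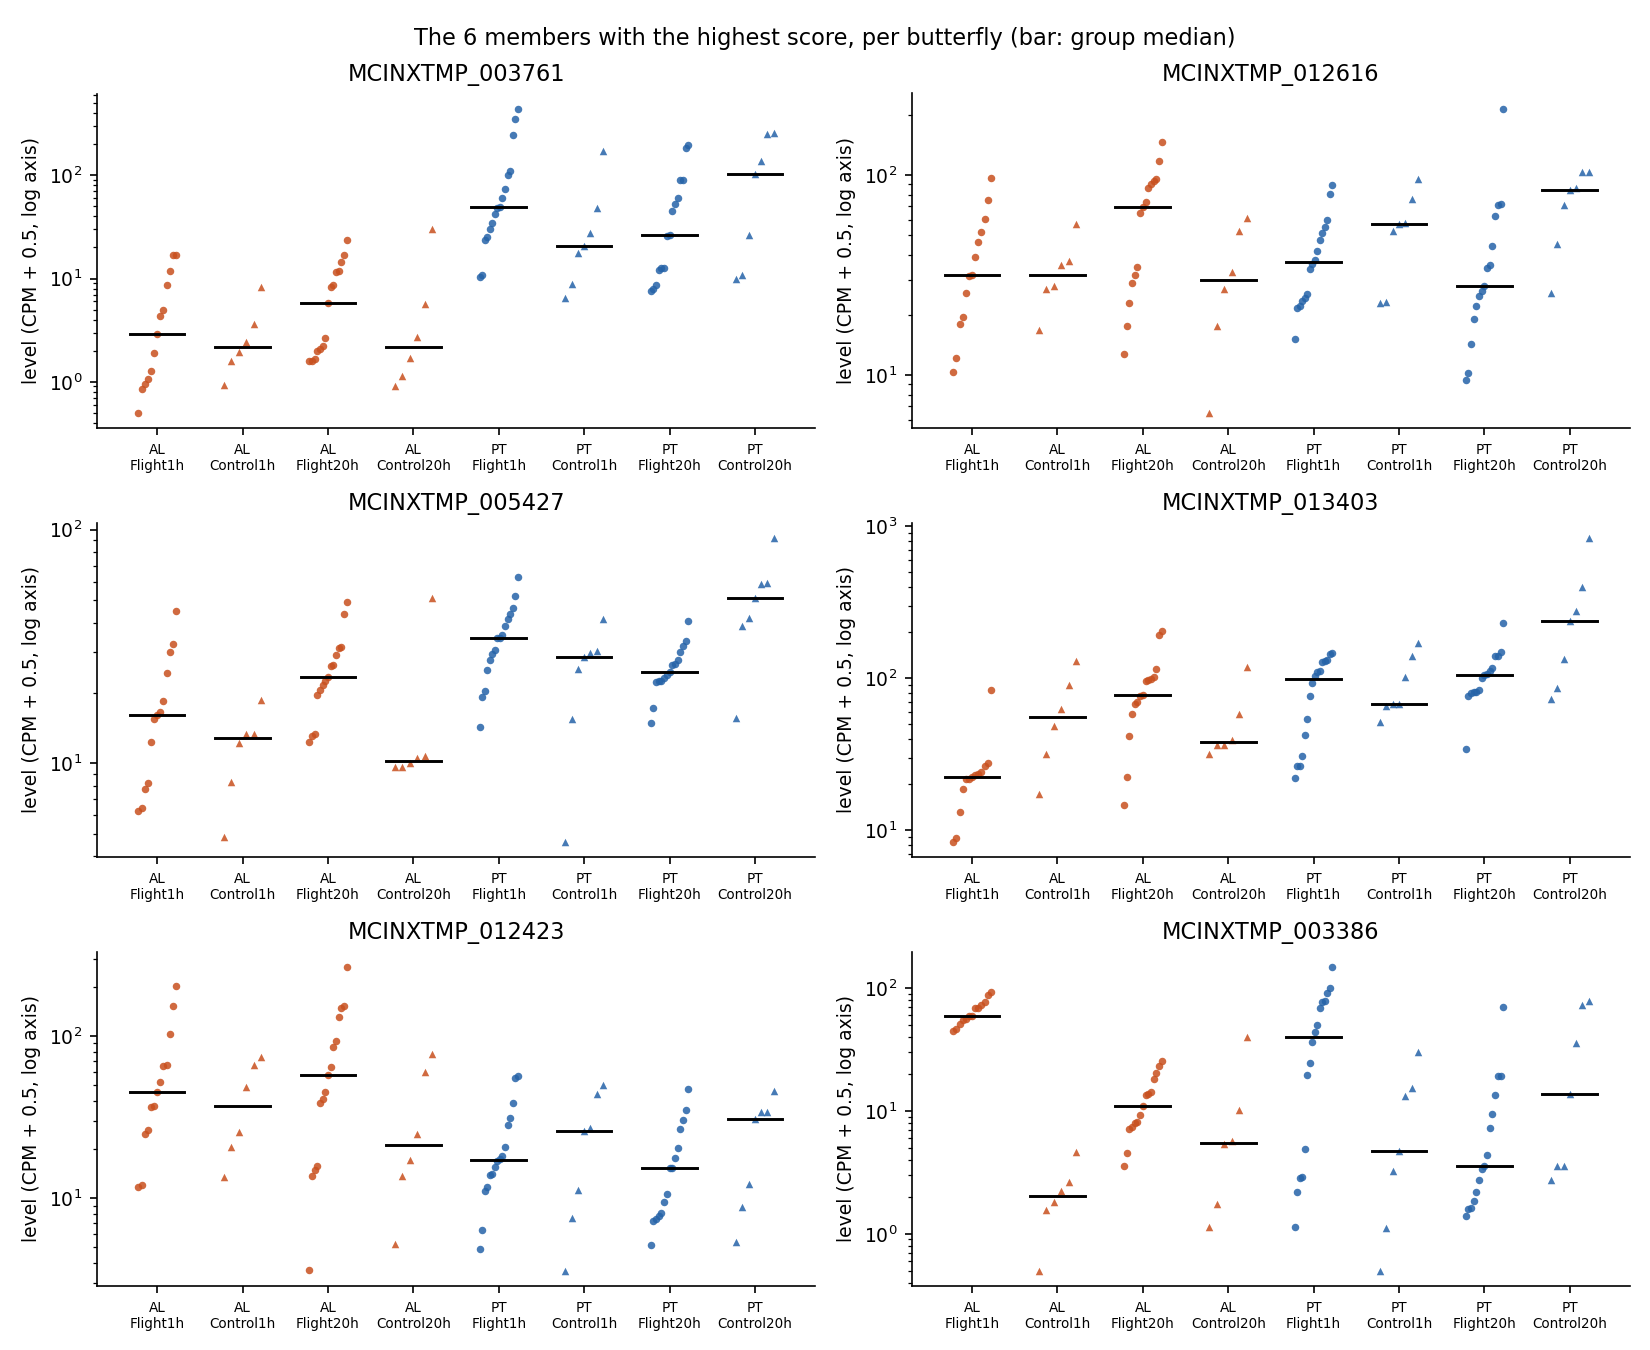
Level of the 6 members with the highest score, in CPM plus 0.5 on a log axis, for each butterfly by population and treatment, with dots for flown and triangles for control butterflies, spread sideways in order of level, and bars at group medians. At 20 h the flown median is above the control median in AL and below it in PT in all 6, with overlapping points in each pair of groups.

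The most abundant members had lower scores. MCINXTMP_015213, at a mean of 1141 CPM, ran in AL from 521 to 3629.6 CPM (median 1289) in Flight20h butterflies, against 626 to 1981 CPM (median 807) in Control20h butterflies. The PT range was 453 to 1477 CPM (median 748) in Flight20h butterflies, against 469.7 to 1654.5 CPM (median 1276) in Control20h butterflies, and its R20 was 0.68 in AL and -0.77 in PT. All these ranges overlapped.

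MCINXTMP_010679, at a mean of 711 CPM, had R20 of 0.65 in AL, the lowest of the members there, and -1.27 in PT. Levels in AL were 575.0 to 1846 CPM (median 926) in Flight20h butterflies, against 285 to 1851 CPM (median 591) in Control20h butterflies. The values in PT were 46.5 to 1646 CPM (median 172) in Flight20h butterflies, against 36.1 to 1447 CPM (median 417) in Control20h butterflies. PT butterflies of both treatments reached far lower levels than AL butterflies, and the groups overlapped.

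MCINXTMP_005929 had the highest R20 of any member in AL, 2.15, and -0.71 in PT. In AL it ran from 19.7 to 1851 CPM (median 136) in Flight20h butterflies, against 9.17 to 179 CPM (median 30.3) in Control20h butterflies. Levels in PT were 81.1 to 830.1 CPM (median 278) in Flight20h butterflies, against 54.2 to 649.8 CPM (median 457) in Control20h butterflies. AL controls were the low group, and the ranges overlapped in both populations.

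The last member inside the 50 was MCINXTMP_008572, with a score of 0.642, and the first gene model outside was MCINXTMP_003271, with a score of 0.640. MCINXTMP_008572 had medians of 237 CPM in AL Flight20h and 98.2 CPM in AL Control20h butterflies, and of 186 CPM in PT Flight20h and 291 CPM in PT Control20h butterflies. For MCINXTMP_003271 the medians were 73.7 CPM in AL Flight20h and 47.1 CPM in AL Control20h butterflies, and 64.4 CPM in PT Flight20h and 132 CPM in PT Control20h butterflies. Both lie close to the threshold, and 5 members scored above 1.

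In no member did the groups stand fully apart at 20 h. No member had all flown AL butterflies above all AL controls (background 0.284%, 7 of 2465), and none had all flown PT butterflies below all PT controls (background 0%, 0 of 2465). The 50 gene models chosen by the mirrored rule, down in AL and up in PT, reached a higher top score of 5.20 but had a lower median score of 0.487, against 0.744 for the members.

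The 20 h pattern was described again within sexes and within insert sizes, from the butterflies that also chose the members. In males the members' median R20 was 0.92 in AL and -0.37 in PT, with both signs in 34 of the 50, and in females it was 0.90 in AL and -0.93 in PT, with both signs in 48. Each population had 2 control males at 20 h. With 650 nt libraries the medians were 1.04 in AL and -0.88 in PT, with both signs in all 50, and with 450 nt libraries they were 0.92 in AL and -0.81 in PT, with both signs in 49. The ratio in PT was thus closer to 0 in males than in females, and this difference was not tested.

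Set between populations, the medians changed order with treatment at 20 h. In Flight20h butterflies 39 of 50 members had the higher median in AL, where 63.9% of the 2465 gene models did so, and in Control20h butterflies 3 of 50 did, against 34.0%. These counts follow from the values that chose the members. At 1 h, outside those values, 20 of 50 had the higher median in AL among Flight1h butterflies (39.4% of the 2465) and 15 of 50 among Control1h butterflies (45.4%).

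The 42 butterflies frozen at 1 h took no part in the choice of ratios, though they did enter the 20 CPM floor. The same ratio at 1 h, flown over control medians, was above 0 for 37 members in AL (51.7% of the 2465) and for 33 in PT (57.8%). Its median over the members was 0.28 in AL and 0.17 in PT, against 0.01 in AL and 0.07 in PT for all 2465. The members' own combination, up in AL and down in PT, occurred in 9 of 50 (18% of members, 19.4% of the 2465). Most members, 28 of 50, were up in both populations (56%, against 32.3% of the 2465), 8 were down in both (16%, against 22.8%) and 5 were down in AL and up in PT (10%, against 25.5%). The opposite directions of 20 h were thus about as frequent in the members at 1 h as in all gene models.

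Flight effects at 1 h were tested with edgeR's quasi-likelihood test over all 7790 gene models with enough counts, which included all 50 members, with sex as a further term. In AL, 5 members passed a Benjamini-Hochberg adjusted p of 0.05 and all 5 rose after flight. The count is 4 without MCINXTMP_003386, which reached the 20 CPM floor only through Flight1h butterflies. The 5 of 50 stand beside a background where 26 of the 7790 passed in either direction (0.334%) and 22 rose (0.282%). The members' median log2 fold change in AL was 0.17, against -0.01 over all gene models tested, and 35 of 50 were above 0 (48.9% of all). In PT it was 0.06, against 0.04 over all gene models tested, and 30 of 50 were above 0 (53.8% of all). Averaged over both populations, 6 members rose (5 without MCINXTMP_003386) and none fell, where 40 of 7790 passed (0.513%) and 34 rose (0.436%). Among the 2465 gene models above the floor tested alone, 26 passed on this mean and 20 rose, 6 of them members with none left out. In PT no gene model passed in edgeR (0%), with 417 at an unadjusted p under 0.05, among them 6 members, all higher after flight. DESeq2 called 8 gene models in PT, 1 of them a member. MCINXTMP_003386 was left out of neither count in PT, so no rise of the members there is drawn from them.

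**Figure D4:**
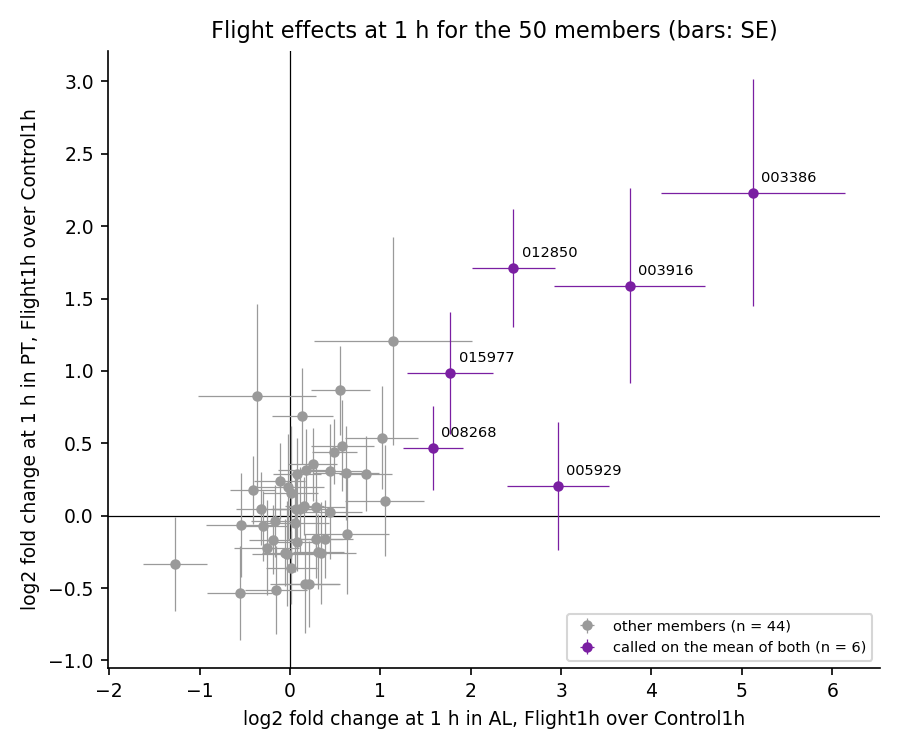
Fitted log2 fold change of flight at 1 h in AL (horizontal axis) and in PT (vertical axis) for the 50 members, with bars of 1 standard error from edgeR's quasi-likelihood fit. The 6 members that passed on the mean of both populations (purple, identifier numbers shown) have higher fitted values in AL than in PT, from 1.58 to 5.12 in AL, where the 5.12 is MCINXTMP_003386, shown with no test.

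MCINXTMP_012850 had the smallest p of the members for flight. The AL range was 21.4 to 137 CPM (median 60.8) in Flight1h butterflies, against 4.99 to 19.8 CPM (median 9.11) in Control1h butterflies. In PT it stood at 18.0 to 159 CPM (median 51.8) in Flight1h butterflies, against 7.34 to 42.9 CPM (median 12.4) in Control1h butterflies. Every flown AL butterfly was above every AL control, and the PT groups overlapped. The log2 fold change in edgeR was 2.47 ± 0.46 in AL (SE, adjusted p = 0.00376) and 1.71 ± 0.41 in PT (adjusted p = 0.30), with a mean of 2.09 ± 0.31 (adjusted p = 0.000103). At 20 h its R20 was 0.71 in AL and -0.76 in PT.

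MCINXTMP_003386 had the largest fitted effect, but its level averaged 54.5 CPM over the 29 Flight1h butterflies and 12.1 CPM over the other 56, so only the flown group lifted it over the floor. Its values at 1 h are therefore a description, with no test. Levels in AL were 44.4 to 93.3 CPM (median 59.1) in Flight1h butterflies, against 0 to 4.11 CPM (median 1.53) in Control1h butterflies. In PT it ran from 0.638 to 149 CPM (median 39.8) in Flight1h butterflies, against 0 to 29.8 CPM (median 4.26) in Control1h butterflies. Flown AL butterflies were all far above the controls, whereas flown PT butterflies reached down into the range of their controls. The fitted log2 fold change was 5.12 ± 1.01 in AL and 2.23 ± 0.79 in PT, with a mean of 3.68 ± 0.63 (SE).

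MCINXTMP_005929 rose in AL, where it ran from 36.6 to 854 CPM (median 264) in Flight1h butterflies, against 26.3 to 65.6 CPM (median 36.8) in Control1h butterflies. The PT range was 143.6 to 1300.0 CPM (median 298) in Flight1h butterflies, against 93.5 to 631 CPM (median 279) in Control1h butterflies. AL controls were the low group, below every PT butterfly, and the flown and control ranges of PT overlapped widely. Its log2 fold change in AL was 2.97 ± 0.56 (SE, edgeR, adjusted p = 0.00445), and the mean over both populations was 1.59 ± 0.35 (adjusted p = 0.0186).

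MCINXTMP_008268 ran in AL from 313 to 1267 CPM (median 737) in Flight1h butterflies, against 75.0 to 317 CPM (median 285) in Control1h butterflies. The values in PT were 136 to 947 CPM (median 529.7) in Flight1h butterflies, against 199 to 719 CPM (median 278) in Control1h butterflies. The AL groups barely overlapped, while those of PT overlapped widely. It rose by 1.58 ± 0.33 on the log2 scale in AL (SE, edgeR, adjusted p = 0.0123) and by 1.03 ± 0.22 on the mean of both populations (adjusted p = 0.0109).

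A further pair that passed, MCINXTMP_003916 and MCINXTMP_015977, is named after its values were seen. MCINXTMP_003916 ran in AL from 59.5 to 859 CPM (median 232) in Flight1h butterflies, against 10.7 to 28.0 CPM (median 18.3) in Control1h butterflies, with no overlap. Levels in PT were 39.2 to 1968 CPM (median 387) in Flight1h butterflies, against 4.04 to 542 CPM (median 111) in Control1h butterflies, with wide overlap. Its log2 fold change in edgeR was 3.76 ± 0.83 in AL (SE, adjusted p = 0.0254) and 2.67 ± 0.53 on the mean (adjusted p = 0.00731).

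MCINXTMP_015977 ran in AL from 31.8 to 87.1 CPM (median 41.1) in Flight1h butterflies, against 4.84 to 18.5 CPM (median 13.6) in Control1h butterflies, again with no overlap. In PT it stood at 9.53 to 142 CPM (median 65.4) in Flight1h butterflies, against 7.15 to 96.9 CPM (median 33.3) in Control1h butterflies. It passed on the mean of both populations, at 1.38 ± 0.32 (SE, edgeR, adjusted p = 0.0242), but not in AL alone, at 1.78 ± 0.48 (adjusted p = 0.0939). In all, 4 members had every flown AL butterfly above every AL control at 1 h (background 0.446%, 11 of 2465), MCINXTMP_003386 among them, and in PT no member and no other gene model of the 2465 did (0%).

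The calls in AL depended on the samples. Among females alone, no member passed in AL in edgeR, where 4 of 7559 gene models did, and 10 members had an unadjusted p under 0.05, 8 of them higher after flight. DESeq2 called 6 members in AL, all higher, beside 89 of the 15149 gene models in its fit. Without the AL male Control1h butterfly 1, 3 members passed in AL, beside 10 of 8071 gene models. When only the 2465 gene models above the floor were tested, 28 passed in AL, 7 of them members. Of these 7, 6 rose and 1 fell, MCINXTMP_013403, whose log2 fold change over all 7790 was -1.27 ± 0.35 (SE, edgeR, adjusted p = 0.113). The 450 nt libraries alone also gave 5 members in AL, beside 20 of 6321 gene models. Of these 5, 4 rose and 1, again MCINXTMP_013403, fell. MCINXTMP_003386, whose values at 1 h carry no test, was not left out of the counts under these settings.

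Whether flight acted differently in the populations at 1 h was tested as the difference of the effects, AL minus PT. No gene model passed in edgeR (0%), with 377 at an unadjusted p under 0.05, among them 4 members, all with the higher effect in AL. MCINXTMP_003386, whose values at 1 h carry no test, was not left out of this count, so nothing is drawn from it. The member with the smallest p was MCINXTMP_005929, at a log2 value of 2.76 ± 0.67 (SE, edgeR, adjusted p = 0.353). DESeq2 called 4 gene models, of which 1 was a member. An effect that passed in AL and not in PT is therefore not shown to differ between them in the edgeR test, and a p above the threshold does not show that the effects were alike.

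Population differences at 1 h were common in the members, as in all gene models. In edgeR, 21 of 50 members differed between AL and PT, where 2251 of 7790 gene models did (28.9%). Of these 21, 7 were higher in AL (background 16.5%) and 14 were higher in PT (background 12.4%). In 4 of the 21 the floor had let the gene model in through its high population alone: MCINXTMP_009272 and MCINXTMP_004978 averaged under 20 CPM in PT, and MCINXTMP_003761 and MCINXTMP_005427 averaged under 20 CPM in AL. The floor admitted such members only with the higher mean in that population, so nothing is drawn from their tests. This bound was narrow for MCINXTMP_005427, at 19.3 CPM in AL and 32.3 CPM in PT over both times. Without these 4, 5 were higher in AL and 12 in PT. The members' median log2 difference, AL over PT, was -0.21, against 0.02 over all gene models tested. When only the 2465 gene models above the floor were tested, 21 members again passed, with none left out, beside 887 of the 2465. Of these members, 8 were higher in AL (465 of the 2465) and 13 in PT (422 of the 2465). The members' median difference was then -0.13, against 0.003 over the 2465.

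MCINXTMP_009272, described with no test, averaged 49.5 CPM in AL and 2.69 CPM in PT over both times. At 1 h it ran from 10.2 to 110.5 CPM (median 42.3) in the 19 AL butterflies, against 0 to 9.63 CPM (median 1.38) in the 23 PT butterflies. It was the only member with all AL butterflies above all PT butterflies (background 0.284%, 7 of 2465), and no member had all PT butterflies above all AL butterflies (background 0.203%, 5 of 2465). The fitted log2 difference was 4.31 ± 0.35 (SE). In PT its R20 of -0.75 rested on medians of 1.53 CPM in Flight20h and 2.92 CPM in Control20h butterflies, far below the 20 CPM floor, which it passed through AL. In AL the same medians were 51.4 CPM in Flight20h and 29.5 CPM in Control20h butterflies, an R20 of 0.79 that was -0.02 under TMM scaling.

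MCINXTMP_004978, likewise with no test, averaged 66.4 CPM in AL and 12.2 CPM in PT over both times. At 1 h it stood at 5.63 to 176 CPM (median 67.2) in AL, against 5.03 to 26.9 CPM (median 12.001) in PT. The ranges overlapped at the low end of AL. Its fitted log2 difference was 2.54 ± 0.24 (SE).

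In the other direction, MCINXTMP_010772 ran from 43.5 to 214 CPM (median 97.7) in AL, against 143 to 554 CPM (median 260.2) in PT. PT butterflies were high, with some overlap. The log2 difference was -1.27 ± 0.18 (SE, edgeR, adjusted p = 2.5e-07). MCINXTMP_003761, the member with the highest score at 20 h, ran from 0 to 16.5 CPM (median 1.93) in AL, against 5.93 to 440.5 CPM (median 41.5) in PT, a fitted difference of -4.04 ± 0.63 on the log2 scale (SE). It averaged 5.72 CPM in AL and 79.2 CPM in PT over both times, so it passed the floor through PT, carries no test here, and its ratio in AL compares low levels.

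**Figure D5:**
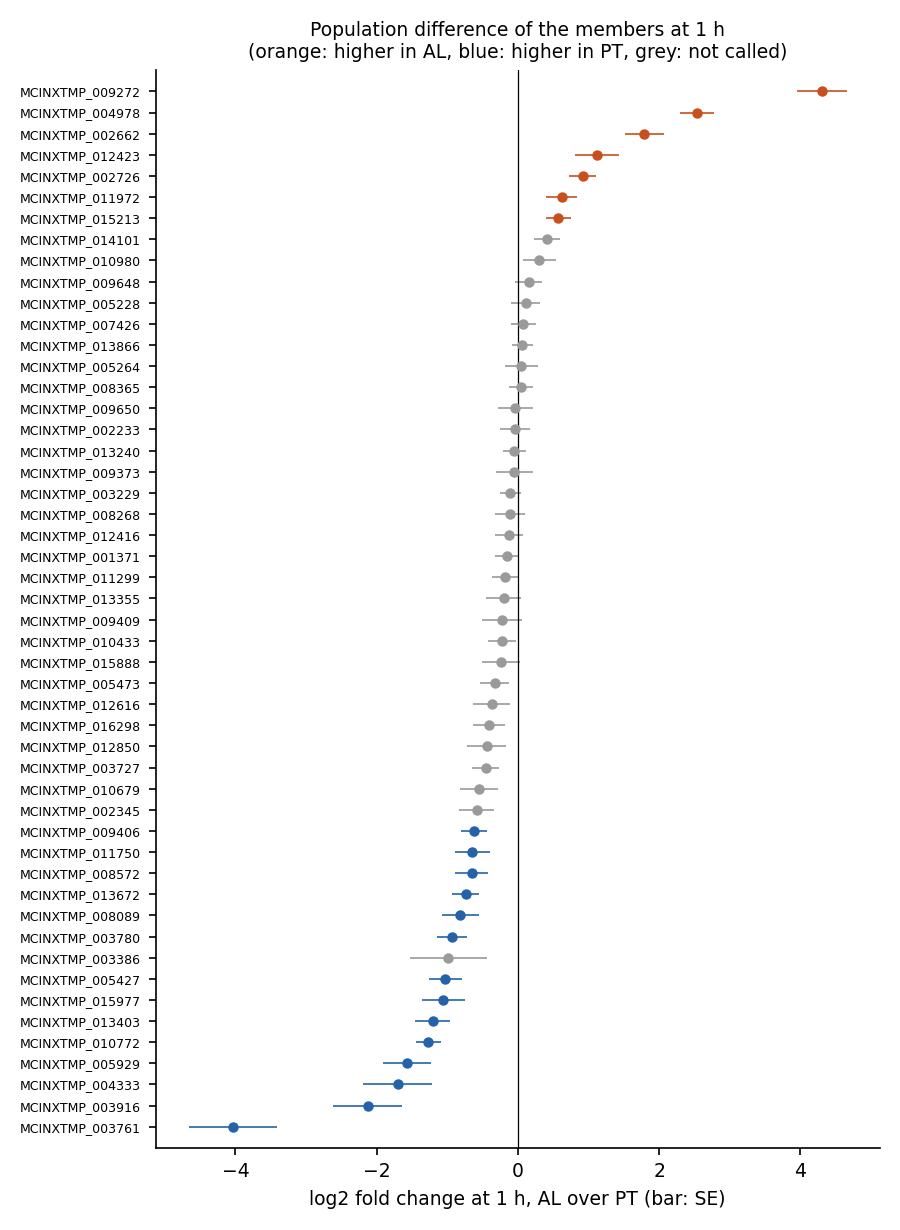
Fitted log2 difference between AL and PT at 1 h (horizontal axis, AL over PT) for each of the 50 members, with bars of 1 standard error from edgeR's quasi-likelihood fit. The 7 members called higher in AL (orange) reach 4.31, the 14 called higher in PT (blue) reach -4.04, and the remaining members (grey) were not called. The 4.31, 2.54 and -4.04 at the ends belong to members that passed the floor through 1 population.

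Sex differences at 1 h were called in 6 members, where 718 of 7790 gene models passed (9.22%). Of these 6, 4 were higher in males (background 4.88%) and 2 were higher in females (background 4.34%). The split, males first, changed with other settings, in the members and over all gene models alike. It was 4 and 6 in DESeq2 (411 and 608 over all) and 4 and 7 above the floor alone (271 and 366). In 650 nt libraries it was 2 and 4 (300 and 308), and with all 85 butterflies 7 and 7 (746 and 785). With DESeq2's size factors in edgeR it was 4 and 3, and over all gene models 307 and 412, against 380 and 338 with TMM. MCINXTMP_004333 ran from 0.512 to 136 CPM (median 19.8) in 17 males, against 27.8 to 570.4 CPM (median 124) in 25 females. Females were high, with overlap, and the log2 difference, male over female, was -2.16 ± 0.47 (SE, edgeR, adjusted p = 0.00177). MCINXTMP_002662 was lower in males too, at 17.4 to 145 CPM (median 29.2) in males, against 28.1 to 854 CPM (median 58.8) in females, a difference of -0.79 ± 0.26 (SE, edgeR, adjusted p = 0.0427).

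Among those higher in males, MCINXTMP_013240 ran from 31.9 to 101 CPM (median 75.8) in males, against 22.8 to 120.5 CPM (median 54.2) in females. The log2 difference was 0.67 ± 0.15 (SE, edgeR, adjusted p = 0.00237). MCINXTMP_003229 ran from 61.3 to 174 CPM (median 99.5) in males, against 37.8 to 155 CPM (median 83.6) in females, a difference of 0.56 ± 0.14 (SE, edgeR, adjusted p = 0.00456). In both, the ranges of the sexes overlapped widely. No member called for sex owed its place above the floor to the sex in which it was higher.

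Each butterfly had a library with 650 nt inserts and one with 450 nt inserts, and the levels of 22 of the 50 members differed between them in limma's paired test over all 85 butterflies, where 1560 of 4768 gene models did (32.7%). When only the 2465 gene models above the floor were tested, 22 members again passed, beside 1177 of the 2465. Of the 22 called over all 4768, 12 were higher with 650 nt (background 16%) and 10 with 450 nt (background 16.7%). This balance depended on the scaling. With library totals in place of TMM, 28 members were called, 7 higher with 650 nt and 21 with 450 nt, where all gene models split into 516 and 1386. MCINXTMP_010679 had a median of 793 CPM with 650 nt and 485 CPM with 450 nt, and was higher with 650 nt in 85 of 85 butterflies, by 0.82 ± 0.04 on the log2 scale (SE, limma, adjusted p = 5.91e-31). MCINXTMP_008572 had medians of 203 CPM with 650 nt and 162 CPM with 450 nt, and was higher with 650 nt in 65 of 85, by 0.32 ± 0.04 (SE, limma, adjusted p = 9.01e-13).

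On the other side, MCINXTMP_003761 had medians of 7.88 CPM with 650 nt and 14.9 CPM with 450 nt, at -0.71 ± 0.10 on the log2 scale (SE, limma, adjusted p = 1.14e-09), and was higher with 650 nt in 11 of 85 butterflies. MCINXTMP_015213 had medians of 858 CPM with 650 nt and 1019.9 CPM with 450 nt, a difference of -0.19 ± 0.03 (SE, limma, adjusted p = 4.47e-09). All compared groups held both insert sizes in equal number.

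Spread within groups was described for the members beside all gene models. Their median biological coefficient of variation at 1 h, as edgeR estimated it within groups, was 0.472, against 0.418 over the 2465 and 0.653 over all 7790. After the mean of each population, treatment and sex group was subtracted, the correlation of log2 levels over the 42 butterflies at 1 h had a median of 0.14 over the 1225 pairs of members, with 4.57% of pairs above 0.5. Over all pairs of the 2465 it had a median of 0.05, with 1.68% above 0.5. These are descriptions, since all pairs share the same libraries and their scaling.

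The pair with the highest correlation, 0.85 over 42 butterflies, was MCINXTMP_012616 and MCINXTMP_010433. At 20 h, MCINXTMP_010433 had medians of 337 CPM in AL Flight20h and 182 CPM in AL Control20h butterflies, and of 181 CPM in PT Flight20h and 360.3 CPM in PT Control20h butterflies. Both gene models had the highest median in PT Control20h butterflies and the lowest in PT Flight20h butterflies. The 6 members that rose after flight at 1 h had a median correlation of 0.62 among themselves, from 0.25 to 0.78 over 15 pairs. Linking all pairs above 0.5 joined 33 members into 1 set and left 17 joined to none. A member joins this set through a single pair, so the set need not vary together. It held MCINXTMP_015977 and MCINXTMP_003386, whose median correlations with the other members were -0.09 and -0.07. The linking was not run on other gene models.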

How the data were processed

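RNA from single thoraxes was sequenced in 170 libraries, with inserts of 450 nt and 650 nt for each of 85 butterflies, made by a strand-specific polyA-anchored method per the labels' protocols. For each library, the authors deposited counts of reads per gene model as whole numbers, without normalization. A deposited table of normalized values from the authors, for 8258 gene models, was used as a signal of unnamed scale. It equalled the summed counts times 1 factor per butterfly in 100% of values (tolerance 0.001 plus 1e-05 of the value), and held all 50 members. CASAVA 1.8, TopHat2 2.0.5 and edgeR are named, with no role, per the submitters' processing notes. What build, annotation and counting tool were used, and whether strand was, is not given in the sources used here, so overlapping, antisense or near-identical gene models may share reads.

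Counts of both libraries were summed per butterfly, and CPM was taken on the total over all gene models. Library totals ran from 659410 to 4349250 counts. Replicates are separate butterflies by the labels, numbered within groups without pairing them. At 1 h, edgeR 4.0.16 in R 4.3.3 (TMM, filterByExpr, robust quasi-likelihood F test) was fitted to 42 butterflies with population by treatment means and sex. The standard error (SE) was taken as the size of the log2 effect over the root of F. Insert sizes were compared in limma 3.58.1 (log2 CPM, prior count 2, butterfly as block). P-values were Benjamini-Hochberg adjusted over all gene models tested, at a threshold of 0.05. No test was run at 20 h, whose values chose the members. The steps were tested on simulated data with planted changes. For the rule, the simulated spread between butterflies was far smaller than in these data, so that run does not show how well the rule works here.

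The members, lists and tests were chosen with earlier results of these data known. Named were the 6 members with the highest score, the last inside and first outside, the 3 most abundant, at most 2 called members per direction with the smallest p in each test (or the 1 with the smallest p), and the most correlated pair. The alternatives were DESeq2 1.42.0, its size factors, other filters, 1 insert size, females only, all butterflies, other averages and scalings, and leaving out single butterflies. Centring on the median and totals without the 10 most abundant gene models were added after seeing the data.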

Additional observations from a re-analysis of the deposited data

Results flagged for a closer look

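Control groups of 6 or 7 butterflies were examined for a butterfly far from the rest of its group, in the summed level of the members and in each member named by rule. The gap to the nearest other butterfly, as a share of the group's range, passed Dixon's critical value in 15 of 84 groups. That value lets about 1 in 20 pass for independent values with a normal spread. Levels here were in CPM without logs, and the sum contains the named members, so no excess over chance is drawn. All 15 were high values, and they fell on 9 butterflies. No cause was tested.

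AL female Control20h butterfly 2 accounted for 5 of them. Its summed level of the members was 7474 CPM, with the next control at 4145 CPM. It also stood apart at 105 CPM in MCINXTMP_003229, 29.9 CPM in MCINXTMP_003761, 50.6 CPM in MCINXTMP_005427 and 1981 CPM in MCINXTMP_015213. AL female Control20h butterfly 3 stood apart at 39.9 CPM in MCINXTMP_003386 and 32.2 CPM in MCINXTMP_012850, and AL female Control20h butterfly 1 at 117 CPM in MCINXTMP_013403. These high controls lie against the direction of the members in AL.

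In PT, female Control20h butterfly 5 stood apart at 439.7 CPM in MCINXTMP_004333 and 66.2 CPM in MCINXTMP_012850, and female Control20h butterfly 1 at 839.9 CPM in MCINXTMP_013403. These lie in the direction of the members in PT. At 1 h, AL female Control1h butterfly 1 stood at 7.74 CPM and PT female Control1h butterfly 4 at 172 CPM in MCINXTMP_003761. PT male Control1h butterfly 2 stood at 719 CPM in MCINXTMP_008268, and PT female Control1h butterfly 1 at 9.63 CPM in MCINXTMP_009272.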

How the results depend on the processing

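Which gene models make up the 50 depended on the settings. The rule kept 28 members with TMM-scaled CPM, 28 with the authors' normalized table, 22 with means in place of medians, 18 with a floor of 5 CPM, 24 with 450 nt libraries, 25 with 650 nt libraries and 24 with females only. Leaving out 1 butterfly at a time kept 33 to 47, the fewest without PT female Control20h butterfly 5. With TMM, 704 of the 2465 gene models were up in AL and down in PT and 529 the reverse, against 1121 and 255 without it. Centring on the median kept 42, and totals without the 10 most abundant gene models kept 38. The members' median R20 stayed between 0.89 and 1.04 in AL and between -0.95 and -0.68 in PT over the same omissions. MCINXTMP_009272 had R20 in AL of -0.021 with TMM, -0.022 with the authors' table, -0.21 with means and -0.12 in females, and of 0.11 in PT in females. The cause was not tested.

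For flight in AL at 1 h, females only gave 0 members and omissions 3 to 5, the fewest without AL male Control1h butterfly 1. In PT, DESeq2 gave 1 and omissions 0 to 1, the 1 without PT male Control1h butterfly 2, where 1 of 7780 gene models passed. For AL minus PT, DESeq2 gave 1. The mean flight effect gave 3 members when all 85 butterflies were fitted, where 24 of 8910 gene models passed. Sex gave 10 members in DESeq2, where 1019 of 15149 gene models passed, and 14 with all 85 butterflies, where 1531 of 8910 did. With gene models above the 20 CPM floor alone it gave 11 of the 50 members, where 637 of 2465 passed, so the totals rose too. Insert size gave 13 members in the 1 h butterflies, where fewer libraries entered and 951 of 4569 gene models passed. With library totals it gave 28 (7 higher with 650 nt, 21 with 450 nt), where 1902 of 4768 passed. Butterflies could not be paired across populations, sexes or treatments, because the labels give no replicate numbers shared by the groups, while insert sizes were compared within each butterfly. Control groups of 6 or 7 butterflies limit the precision of every flight ratio.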
